A study of Mus musculus with 59 samples.

Results

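The proteasome subunit genes of mouse were described here in embryonic stem cells (ESCs) treated with Actinomycin D, a drug that stops transcription. The set was chosen by name: every gene whose symbol starts with Psma, Psmb, Psmc, Psmd, Psme, Psmf or Psmg followed by a number. By this rule 50 of 23974 genes were taken, and 34 of the 50 reached the mean value of at least 10 that was required for testing, beside 6952 of all genes. The 50 held 49 genes for subunits, regulators or assembly factors of the proteasome. The other match was Psmc3ip, a meiotic recombination gene that carries the name of a proteasome gene only because its protein was found to bind that subunit.

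The ESC lines came from blastocysts of the BDF1 strain and were grown with serum, leukaemia inhibitory factor (LIF) and the inhibitors CHIR99021 and PD0325901, a medium shared by all groups. Control cells were wild type and KO cells were knocked out for Zcchc8, a zinc-knuckle subunit of the nuclear exosome targeting complex, which brings nuclear transcripts to the RNA exosome, the machine that degrades them. Both genotypes received Actinomycin D at 5 µg/ml for 0, 4 or 8 h, with 2 libraries of ribosome-depleted total RNA in each of the 6 groups, and these 12 libraries, of 59 in the series, are the ones described here. The labels do not say whether replicates were separate cultures or separate clones. The p-values between genotypes thus speak only of how far libraries of a group differ, and that spread can be technical. The p-values of changes per hour come from a straight line over 0, 4 and 8 h. They also take in how far the libraries depart from that line, so a course that is not straight can miss a call.

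The proteasome is the protease that degrades ubiquitin-tagged proteins in the cytosol and the nucleus. Its core is a barrel of alpha rings, which gate the entrance, and beta rings, which hold the cutting sites. A regulatory particle of ATPases and non-ATPase subunits binds the tagged protein, removes ubiquitin, unfolds the chain and feeds it into the barrel. Separate activators can cap the barrel instead, and assembly chaperones build the rings. The subunits are used in fixed proportions, and their genes are known to be transcribed together under the factor NFE2L1.

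Values are read counts per gene divided by 1 factor per library by the authors, and 1 read was worth 0.452 to 3.23 of these units. The libraries held 465324 to 1364523 counted reads. Of the libraries, control 0 h replicate 2 was the shallowest and lay above its partner by 0.81 (log2) in the median gene. By chi-square per degree of freedom the KO 8 h pair differed most, at 13.3 against 3.5 to 4.19 in the other groups. By correlation of log2 values the control 0 h pair differed most, at 0.837 against 0.872 to 0.938 in the other groups. Zcchc8 itself stood at 59.3 and 77.5 in control and at 25.3 and 5.29 in KO at 0 h, a log2 change of -2.42 ± 0.68 (SE, limma, adjusted p = 0.033). Of 15 ESC markers 12 were tested, and their adjusted p-values between the genotypes at 0 h (limma) were 0.28 or more. The summed share of reads on the 15 was lower in KO at 0 h, at 0.482% to 0.500% in control and 0.364% to 0.395% in KO. Esrrb of that list had 0 reads in all 12 libraries, and Nanog had 4. Of 20 fibroblast markers 13 were tested and 6 were higher in KO at 0 h, beside 4.23% of all genes tested. The summed share of reads on the 20 was 0.847% to 0.974% in control and 1.29% to 1.66% in KO. After TMM scaling 4 of the 13 were called higher, beside 91 of all 6952 genes. Postn and Pdgfrb of that list had 0 reads in all 12 libraries, whereas Col1a1 reached 9693 units. Of 8 neuroectoderm markers 4 were tested and 2 were higher in KO at 0 h, or 0 after TMM scaling, their summed share was 0.0186% to 0.0225% in control and 0.0278% to 0.0388% in KO, and Pax6 had 0 reads.

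The 34 tested genes covered the parts of the machine unevenly. All 7 constitutive beta subunits and all 6 ATPases were tested, against 4 of 8 alpha subunits, 9 of 11 regulatory non-ATPases, 3 of 7 assembly chaperones, 3 of 6 activators and inhibitors, and 1 of 4 immune or thymic beta subunits. Psma3, Psmd2, Psmd4, Psmd10, Psme2b and Psmg4 were listed at 0 reads in every library, although Psma3, Psmd2 and Psmd4 encode subunits of every complete proteasome. Of the 50 genes, 6 had several transcript rows in the table and 0 of those 6 were tested, while 34 of the 44 genes with 1 row were. Over the whole table, 34.3% of genes with 1 row and 8.47% of genes with several rows reached the filter. Of the genes at 0 reads, Psmd2, Psmd4, Psmd10 and Psmg4 have several rows, whereas Psma3 and Psme2b have 1 row each. A value of 0 was not read as absence of the RNA for any of them. The part that the counting of several rows had in these values was not tested.

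Most other genes under the filter were low in every group. Psmb8 and Psmb9, the interferon-induced catalytic subunits of the immunoproteasome, did not exceed 3.36 and 1.68 units in any library. Psmb11, the thymus subunit, did not exceed 5.04 units, and Psma8, the testis alpha subunit, ranged from 0 to 19.4. Psmf1, an inhibitor of the core, did not exceed 7.05 units. Psme2, whose near-identical copy Psme2b makes its counts uncertain, ranged from 0 to 19.4, and Psma6, Psma7 and Psmg2 did not exceed 10.8, 10.8 and 16.8 units. Psmg3, an assembly chaperone, was the exception: it stood at 30.3 and 29.1 in control at 0 h, above the tested Psmb10, and at 0 and 4.63 at 4 h and 3.78 and 1.81 at 8 h. In KO it stood at 6.74 and 12.3, 7.85 and 2.91, and 1.91 and 0. Both later pairs in control thus lay below both libraries at 0 h, and with no filter on low values Psmg3 was called lower in control, on 80 reads over 12 libraries. Psma6 and Psma7, classed in the core alpha ring, rest on 48 and 39 reads, and Psma7 has 2 transcript rows. Like the values of 0, the low values of Psma6 and Psma7 were not read as a low level of the RNA.

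Among tested genes with 1 row, levels per kilobase of transcript were compared in control cells at 0 h, on the deposited scale. Psmd7, a lid subunit that holds the deubiquitinating subunit Psmd14 in place, was the highest, at 234 units per kb. Psmc1, an ATPase, followed at 208 units per kb, and Psmd3, another lid subunit, at 180.3 units per kb. The beta subunit Psmb6 stood at 172 units per kb, the ATPase Psmc5 at 161 and the beta subunit Psmb3 at 159.9. The order of these neighbours cannot be settled with 2 libraries, since Psmd7 alone spanned 245 to 494 units. At the low end stood the assembly chaperones Psmd9 and Psmd5, at 11.1 and 9.01 units per kb, and Psmb10 at 4.98 units per kb.

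Over 8 h of Actinomycin D, 15 of the 34 tested proteasome genes fell in control cells on the deposited scale (limma, adjusted p below 0.05) and 0 rose. At an unadjusted p below 0.05 the counts were 18 lower and 0 higher, beside 4088 and 42 of all 6952 genes. By adjusted p, edgeR with the deposited factors called 11 lower, all among the 15, and 0 higher, beside 3623 and 6 of all genes. The steepest losses were those of Psmd7, Psmd5 and Psma5, and the constitutive beta subunits were not among the 15. The 15 calls are 44.1% of the tested proteasome genes, beside 52.1% of all genes tested called lower and 0.446% called higher in the same fit. The median change of the proteasome genes in control was -0.11 per hour on the log2(value + 1) scale, against -0.17 over all genes, and 24 of the 34 lay above the all-gene median. In KO cells 1 of 34 fell, or 2.94%, and 0 rose, beside 37.3% of all genes called lower and 0.0288% called higher. There 9 were lower and 0 higher at an unadjusted p below 0.05, beside 3469 and 8 of all genes, and edgeR called the same gene, Psmd7, and 0 higher. The median in KO was -0.097 per hour against -0.14 over all genes, and 30 of the 34 lay above it. The cytosolic ribosomal protein genes, another set of housekeeping RNAs, had medians of -0.082 in control and -0.055 in KO, with 11 and 4 of 70 called lower.

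These directions depended on the scale. TMM scaling, which sets the typical gene of each library level, moved the all-gene median to 0.0028 in control and -0.00069 in KO, and the proteasome medians to 0.068 and 0.047 per hour. After it, 5 of the 34 proteasome genes rose in control, namely Psmc4, Psmb5, Psmd8, Psmb3 and Psmd1, and 1 fell, Psmd7, beside 8.23% of all genes called higher and 8.82% called lower. In KO, Psmd3 rose and 0 fell after TMM scaling, beside 2.78% of all genes called higher and 3.78% called lower. Leaving out 1 library gave 4 lower calls without control 8 h replicate 1, 5 without control 0 h replicate 2 and 26 without control 0 h replicate 1 on the deposited scale, where all genes gave 1998, 1849 and 4480 lower calls of 6952, against 3620 with every library. In KO the 1 lower call became 9 without control 0 h replicate 1, 6 without control 0 h replicate 2, and 2 when control 4 h replicate 2 or KO 0 h replicate 2 was left out, with 3141, 3074, 2583 and 1117 lower calls over all genes, against 2596. After TMM scaling the 5 higher calls became 0 without control 0 h replicate 2, and 2 without control 0 h replicate 1, control 8 h replicate 1 or control 8 h replicate 2, with 198, 380, 281 and 314 higher calls over all genes, against 572. The single higher call in KO was lost without any 1 of 10 libraries, and became 2 without KO 8 h replicate 2.

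**Figure D1:**
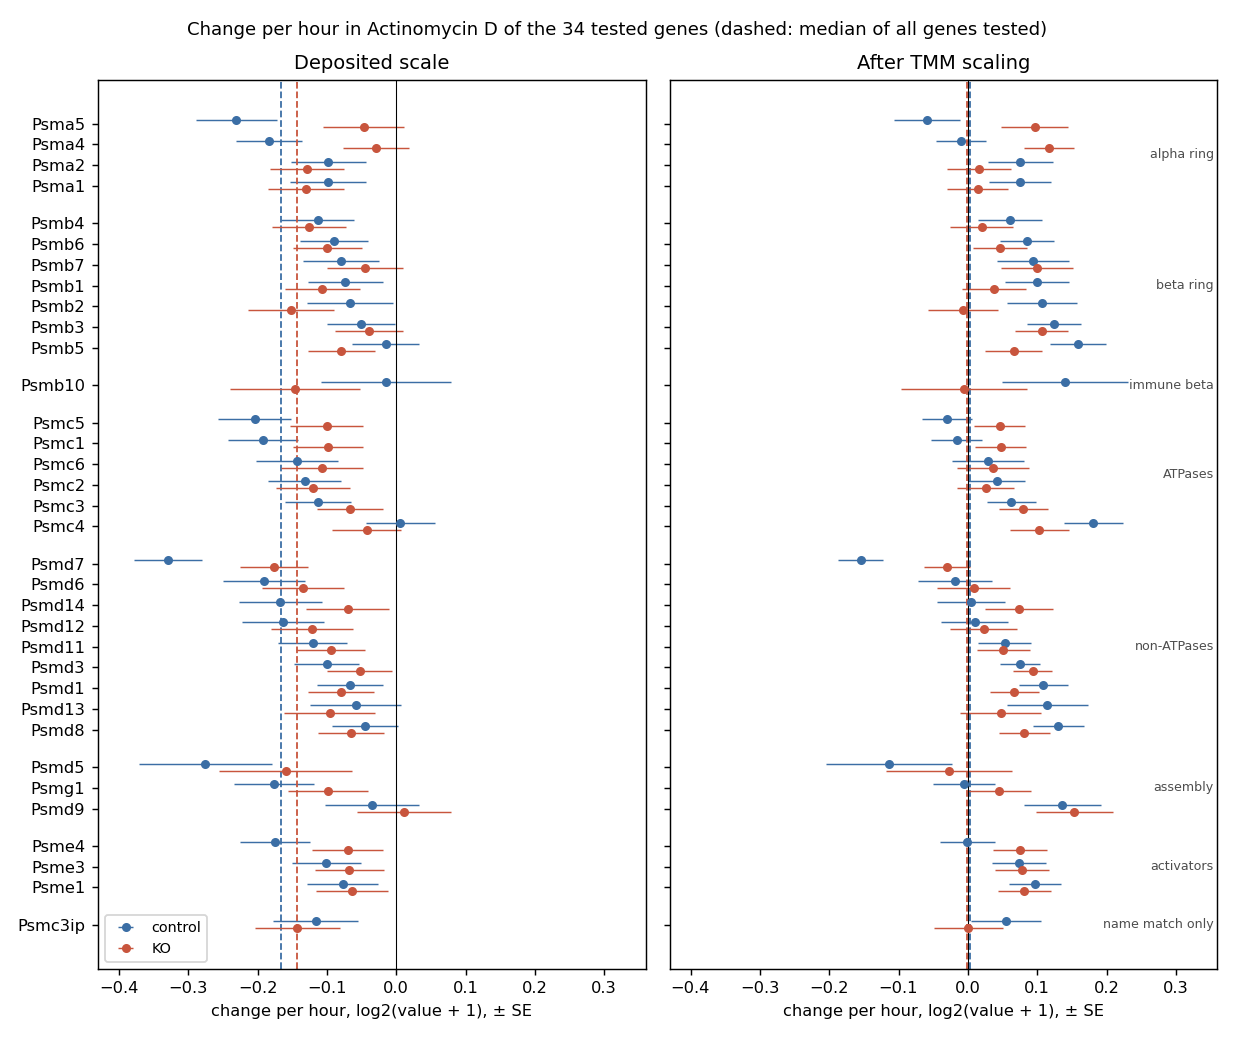
Change per hour of log2(value + 1) with its SE for each of the 34 tested genes, grouped by class, in control (blue) and KO (red), on the deposited scale (left) and after TMM scaling (right); dashed lines mark the median of all genes tested. On the deposited scale Psmd7 in control is farthest to the left at -0.33 per hour, and all 7 constitutive beta subunits lie to the right of the control median of -0.17.

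The alpha ring split in control cells. Psma4 and Psma5, subunits of the outer ring, fell on the deposited scale, and Psma1 and Psma2 did not pass the test. Psma5 stood at 65.8 and 116 at 0 h, 32.7 and 46.3 at 4 h and 21.6 and 25.7 at 8 h in control. In KO it stood at 42.1 and 61.7, 52.7 and 70.7, and 35.7 and 42.8 at the same times. The KO libraries thus lay below both control libraries at 0 h and above both at 4 and 8 h. The change per hour of Psma5 was -0.23 ± 0.058 (SE) in control (limma, adjusted p = 0.0019) and -0.047 ± 0.058 in KO (adjusted p = 0.50).

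Psma4 stood at 119.8 and 165 at 0 h, 88.0 and 99.6 at 4 h, and 51.3 and 48.8 at 8 h in control. The KO values were 129.7 and 122, 126 and 149, and 95.6 and 119.6. The genotypes overlapped at 0 h, and both KO libraries lay above both control libraries at 4 and 8 h. Its change per hour was -0.18 ± 0.048 in control (limma, adjusted p = 0.0023) and -0.029 ± 0.048 in KO (adjusted p = 0.61). Psma2, for comparison, stood at 67.2 and 84.0, 72.0 and 87.3, and 42.2 and 44.3 in control, and at 79.2 and 101, 88.0 and 82.3, and 54.8 and 34 in KO, with the genotypes overlapping at each time. After TMM scaling the control changes of Psma4 and Psma5 were -0.0098 and -0.059 and no longer passed the test.

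The constitutive beta ring, which holds the catalytic subunits Psmb5, Psmb6 and Psmb7, had 0 of 7 genes called in either genotype on the deposited scale by limma or by edgeR. At an unadjusted p below 0.05 both gave 1 in control and 2 in KO. By limma 52.1% of all genes tested were called lower in control and 37.3% in KO. At the unadjusted threshold 4088 and 3469 of all 6952 genes were lower. After TMM scaling Psmb5 and Psmb3 were called higher in control, beside 8.23% of all genes. All 7 of its genes lay above the all-gene median in control, between -0.11 and -0.015 per hour, and 6 of 7 did in KO. Psmb6, the caspase-like catalytic subunit, stood at 119.8 and 155 at 0 h, 111 and 168 at 4 h, and 71.3 and 95.8 at 8 h in control, and at 217 and 190.4, 168 and 137, and 159 and 85.6 in KO. Psmb3, a structural subunit, stood at 109 and 136, 151 and 168, and 82.7 and 102 in control. KO libraries gave 136 and 134, 153 and 161, and 115 and 102. For Psmb3 both libraries at 4 h lay above both at 0 h in each genotype, and at 8 h both lay below both at 0 h.

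Among the beta subunits the smallest change in control was that of Psmb5, which carries the chymotrypsin-like site and is the target of bortezomib. It was chosen for its place in this order, after its values were seen. Psmb5 stood at 93.5 and 80.8 at 0 h, 89.5 and 103 at 4 h, and 67.0 and 94.9 at 8 h in control, so that the 0 h and 8 h libraries overlapped. The KO libraries gave 118 and 130.5, 122 and 120.1, and 78.4 and 80.6. Its mean at 8 h was 92.9% of its mean at 0 h in control and 64.0% in KO, a difference that was not called.

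Psmb10, the 1 tested subunit of the immunoproteasome, was the proteasome gene with the smallest p between genotypes at 0 h. It stood at 6.58 and 6.46 in control and at 26.9 and 40.6 in KO at 0 h. At 4 h it stood at 18.2 and 5.41 in control and 10.1 and 26.2 in KO, and at 8 h at 7.03 and 4.97 in control and 15.9 and 12.6 in KO. The groups did not overlap at 0 and 8 h and overlapped at 4 h. The log2 change at 0 h was 2.18 ± 0.75 (limma, adjusted p = 0.089), which missed the threshold, and TMM scaling gave 1.72 with an adjusted p of 0.27. These levels rest on 182 reads over 12 libraries, and at 0 h in control on 5 and 2 reads. The summed shares of the fibroblast and neuroectoderm markers, given above, were also higher in KO at 0 h, and that of the ESC markers lower. The median of all genes was 0.44 higher in KO. Single markers differed: Fn1 stood at 9.22 and 45.2 in control and 3.37 and 12.3 in KO, and Zic2 overlapped between the genotypes. The part of these shifts in the values of Psmb10 was not tested. In bulk RNA more cells of a type and more RNA per cell cannot be told apart.

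The ATPases form the ring that unfolds substrates. In control 5 of the 6 fell, beside 52.1% of all genes tested called lower in the same fit. The 5 ran from -0.20 per hour for Psmc5 to -0.11 for Psmc3, and Psmc4 stood at 0.0061 and was not called. Only Psmc1 and Psmc5 were also called by edgeR with the deposited factors and by limma without its trend and robust options. Psmc2, Psmc3 and Psmc6 missed the threshold in both (adjusted p of 0.051 to 0.059 by edgeR). Over all genes edgeR gave 3623 and that limma fit 3331 lower calls of 6952 in control. Psmc1 stood at 213 and 449 at 0 h, 196 and 212 at 4 h, and 78.9 and 143 at 8 h in control. The values in KO were 289.7 and 182, 187 and 235, and 157 and 111. At 8 h both control libraries lay below both at 0 h, and the same held in KO, where Psmc1 was not called.

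Psmc3, an ATPase whose annotated exons overlap those of Slc39a13 on the other strand, stood at 194 and 249, 131 and 262, and 105 and 129.7 in control, and at 283 and 231, 262 and 262, and 154 and 203 in KO. Psmc4, the ATPase with the least change in control, stood at 116 and 113, 167 and 182, and 111 and 126 in control. KO values of the gene were 195 and 116, 164 and 194, and 122 and 116. Its control libraries at 8 h spanned the level at 0 h, and both at 4 h lay above. Of the 5 calls, Psmc2, Psmc3 and Psmc6 turned to changes above 0 after TMM scaling, at 0.042, 0.062 and 0.029 per hour, whereas Psmc1 and Psmc5 stayed below 0 at -0.016 and -0.030 with no call. Without control 0 h replicate 2 none of the 5 was called (adjusted p of 0.054 to 0.18), without control 8 h replicate 1 Psmc5 alone was, and the call of Psmc3 was also lost without any 1 of 7 further libraries. Those of Psmc2 and Psmc6 were lost without control 8 h replicate 2, and that of Psmc6 also without KO 4 h replicate 2.

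**Figure D2:**
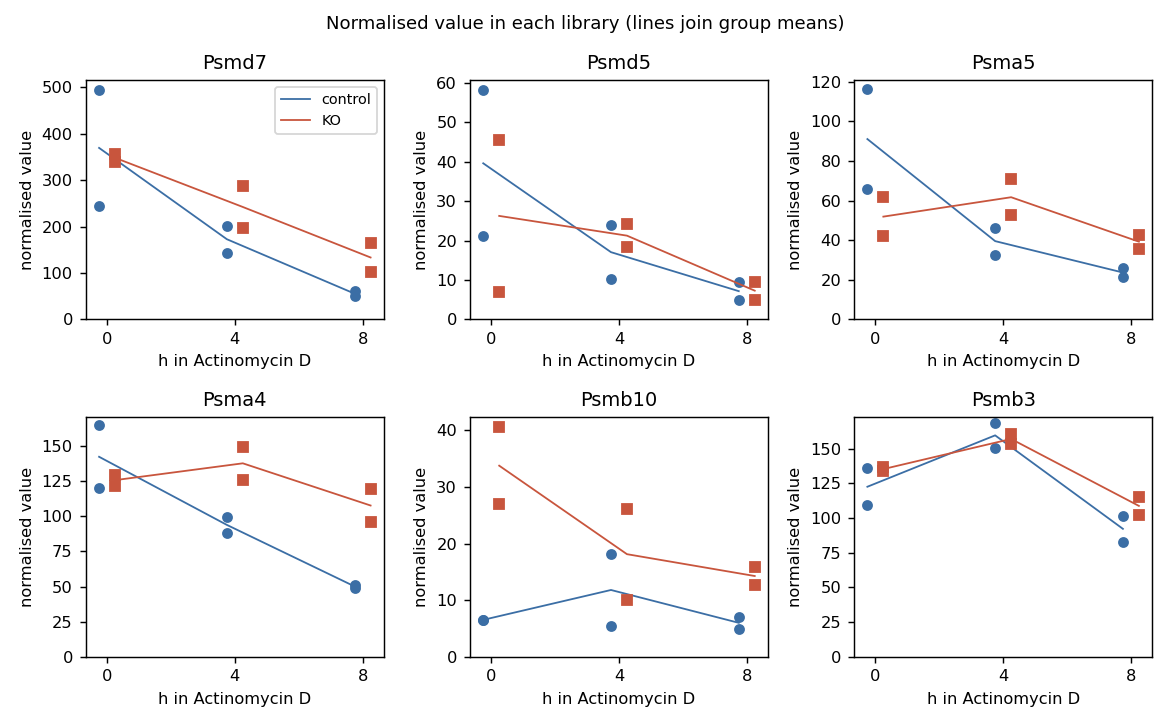
Normalised value in each library against hours in Actinomycin D for 6 genes, with control as blue circles and KO as red squares; lines join group means. Psmd7 in control drops from 245 and 494 at 0 h to 49.7 and 61.4 at 8 h, while Psmb3 ends at 82.7 and 102.

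Among the regulatory non-ATPases Psmd7 had the steepest loss of the tested proteasome genes. Psmd7 stood at 245 and 494 at 0 h, 143 and 202 at 4 h, and 49.7 and 61.4 at 8 h in control. In KO it stood at 340.2 and 356, 198 and 287, and 103 and 164. In control each later time lay below the one before with no overlap, and in KO the same was seen. The change per hour was -0.33 ± 0.049 in control (limma, adjusted p = 6.58e-06) and -0.18 ± 0.049 in KO (adjusted p = 0.0071). Psmd7 was also the 1 proteasome gene still called lower in control after TMM scaling, at -0.15 ± 0.033 (adjusted p = 0.0034), where the KO change was -0.030 and was not called. Its mean at 8 h was 15.0% of that at 0 h in control and 38.3% in KO. The control call held without each library in turn, and the KO call was lost without KO 8 h replicate 1 (adjusted p = 0.094).

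The other 4 calls in this class in control were Psmd6, Psmd11, Psmd12 and Psmd14, between -0.19 and -0.12 per hour. Over all genes tested, 52.1% were called lower in control. Psmd14 is the deubiquitinase of the lid, and Psmd6, Psmd11 and Psmd12 are scaffold subunits beside it. After TMM scaling Psmd11, Psmd12 and Psmd14 turned to 0.053, 0.0098 and 0.0049 per hour, and Psmd6 stood at -0.019, with none of the 4 called. Without control 8 h replicate 1 none of the 4 was called either (adjusted p of 0.12 to 0.32), and without control 0 h replicate 2 Psmd6 alone was. Psmd11 also missed the threshold by edgeR with the deposited factors (adjusted p = 0.059) and without any 1 of 6 further libraries (adjusted p of 0.0502 to 0.082).

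The most abundant members of the class by mean value were not called in control on the deposited scale. Psmd3 stood at 261 and 514, 273 and 390.1, and 187 and 234 in control, and at 413 and 439, 305 and 396, and 284 and 355.2 in KO. Psmd1, the largest scaffold subunit of the base, stood at 200.2 and 258, 239 and 359, and 146 and 169 in control. The KO values were 335 and 303, 293 and 333, and 190.0 and 220.4. Both genes had their lowest mean at 8 h in each genotype, where the libraries lay below both at 0 h.

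Assembly chaperones included the second-steepest loss. Psmd5, a chaperone of the regulatory base, stood at 21.1 and 58.1 at 0 h, 10.2 and 23.9 at 4 h, and 4.86 and 9.49 at 8 h in control, a change per hour of -0.28 ± 0.096 (limma, adjusted p = 0.017). The KO libraries gave 45.5 and 7.05, 24.1 and 18.4, and 9.56 and 5.04, and the pair at 0 h spanned all later values except the lowest at 8 h. Psmg1, which helps close the alpha ring, stood at 46.1 and 74.3, 29.8 and 42.5, and 18.4 and 24.8 in control, where it fell by 0.18 per hour.

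In KO Psmg1 stood at 64.0 and 72.3, 37.0 and 48.4, and 40.2 and 37.8, and was not called. Psmd9, another base chaperone, stood at 15.8 and 42.0, 27.6 and 45.6, and 16.2 and 27.6 in control, and at 30.3 and 40.6, 40.9 and 28.1, and 37.0 and 37.8 in KO. Its times overlapped in KO, and in control the 0 h libraries overlapped both later times, while both libraries at 8 h lay below both at 4 h, though narrowly. Psmd5 and Psmg1 remained below 0 after TMM scaling, at -0.11 and -0.0053 per hour, and neither was called. Both control calls were also lost without control 0 h replicate 2 (adjusted p = 0.16 and 0.11) and without control 8 h replicate 1 (adjusted p = 0.13 and 0.086).

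Of the activators, Psme4, the nuclear cap also known as PA200, fell in control by 0.18 ± 0.051 per hour (limma, adjusted p = 0.0054), and after TMM scaling its change was -0.00071. Without control 8 h replicate 1 the adjusted p was 0.092. It stood at 134 and 194 at 0 h, 103 and 175 at 4 h, and 50.3 and 72.7 at 8 h in control. The values in KO were 106 and 116, 133 and 99.8, and 78.4 and 71.8, with both KO libraries under both control libraries at 0 h and an overlap at 8 h. Psme3, the nuclear activator PA28 gamma, stood at 128 and 165, 191 and 179, and 73.5 and 92.6 in control, and at 219 and 166, 145 and 178, and 147 and 116 in KO. For Psme3 the KO pair lay above the control pair at 0 and 8 h and below it at 4 h. Psmc3ip, the match by name only, stood at 29.0 and 58.1, 42.2 and 36.3, and 18.9 and 23.5 in control, and at 70.7 and 45.8, 39.8 and 39.7, and 24.2 and 26.4 in KO, with no call. Leaving it out changed no count of calls in the fit to all 12 libraries, and the median change in control was then -0.10 per hour. It is 1 of the 26 lower calls in control without control 0 h replicate 1, and 1 of the 9 and of the 6 lower calls in KO without either control 0 h library.

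**Figure D3:**
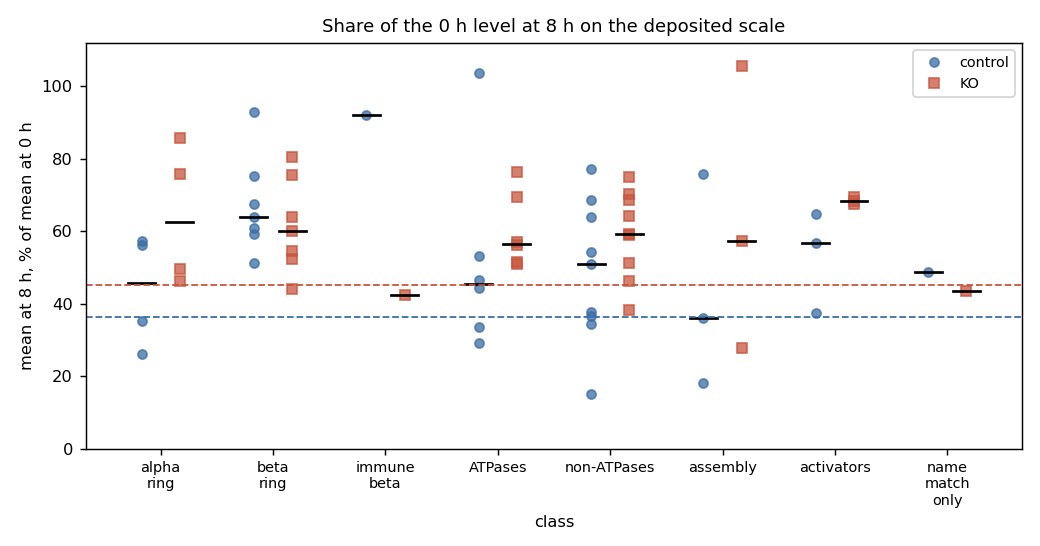
Mean value at 8 h as a percent of the mean at 0 h for each tested gene (points), by class, on the deposited scale, in control (blue) and KO (red); short black bars are class medians and dashed lines the medians of all genes tested, 36.3% in control and 45.1% in KO. The constitutive beta ring has a median of 63.9% in control and 60.1% in KO, and the alpha ring 45.7% and 62.5%.

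Set out by class, the share of the 0 h level left at 8 h in control had a median of 63.9% in the constitutive beta ring, 51.1% in the regulatory non-ATPases, 45.7% in the alpha ring, 45.4% in the ATPases and 35.9% in the assembly chaperones. In KO these medians were 60.1%, 59.2%, 62.5%, 56.5% and 57.2%. Over the 34 tested genes the median was 53.8% in control and 59.1% in KO, and the genes ranged from 15.0% to 104% and from 27.8% to 105%. The classes overlapped in both genotypes, and with 1 to 9 genes in each no order of the classes was tested. Across the 34 genes the changes per hour in control and KO, which come from different libraries, had a Pearson r of 0.37 and a Spearman rho of 0.29. The control change had an r of -0.23 with transcript length and of 0.014 with mean level.

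Ratios between 2 subunit genes within a library do not contain the library's scaling factor. In each class with at least 3 tested genes, the gene with the steepest control change was divided by the gene with the flattest. These pairs were chosen on the control values, so the ratios in control are a description. The choice by itself favours a larger fall in control than in KO. No difference between the genotypes is therefore read from these ratios. Psmd7 to Psmd8 was 1.46 and 2.22 at 0 h, 0.686 and 0.649 at 4 h, and 0.357 and 0.381 at 8 h in control. In KO, which did not enter the choice, it was 1.16 and 1.06, 0.587 and 0.993, and 0.409 and 0.861. The KO ratio at 8 h lay below that at 0 h in both libraries, and its 8 h libraries lay above both control libraries, though narrowly for 0.409 against 0.381.

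Psma5 to Psma1 was 1.43 and 1.64 at 0 h and 0.678 and 0.760 at 8 h in control, against 0.610 and 0.515 at 0 h and 0.778 and 1.03 at 8 h in KO. The control ratio was thus lower at 8 h than at 0 h and the KO ratio higher, with no overlap within either genotype. Psmc5 to Psmc4 was 1.07 and 2.66 at 0 h and 0.500 and 0.538 at 8 h in control, against 0.819 and 2.05 and then 0.864 and 1.02 in KO, where the times overlapped. Psmd5 to Psmd9 rests on 4 to 43 reads of Psmd5 per library and went from 1.33 and 1.38 to 0.300 and 0.344 in control, against 1.5 and 0.174 and then 0.259 and 0.133 in KO. In the constitutive beta ring Psmb4 to Psmb5 was 0.986 and 1.88 at 0 h and 0.952 and 0.648 at 8 h in control, and 1.19 and 1.46 and then 1.5 and 0.688 in KO. Here the 8 h pair lay below the 0 h pair in control and spanned it in KO. Among the activators Psme4 to Psme1 went from 1.96 and 1.71 at 0 h to 1.13 and 0.994 at 8 h in control, with no overlap, and from 0.926 and 1.32 to 1.14 and 1.0 in KO, where the times overlapped.

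**Figure D4:**
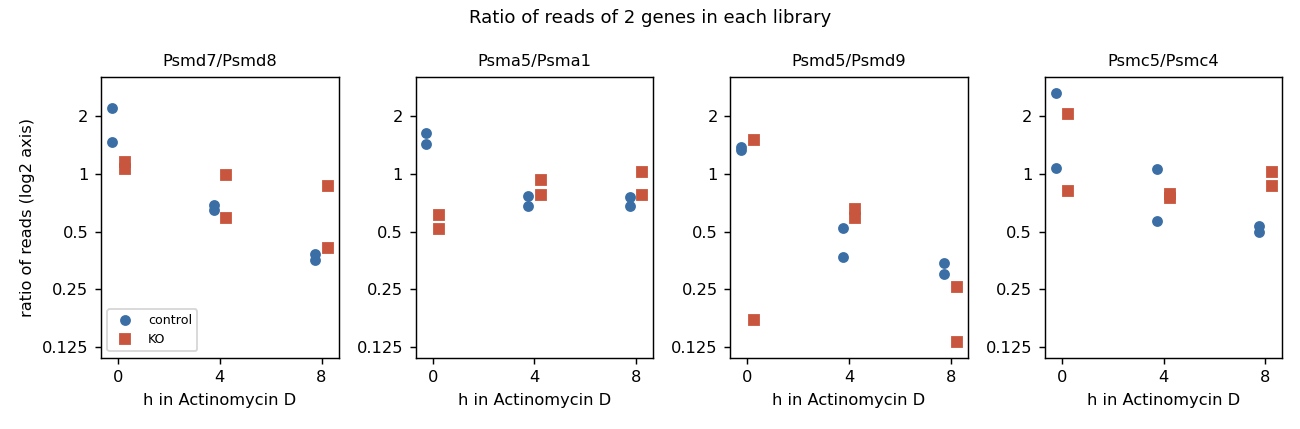
Ratio of the reads of 2 genes in each library (log2 axis) against hours in Actinomycin D, control as blue circles and KO as red squares, for the steepest and flattest gene in control of 4 classes. Psmd7/Psmd8 drops from 1.46 and 2.22 to 0.357 and 0.381 in control, and Psma5/Psma1 starts at 0.610 and 0.515 in KO.

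The share of reads that fell on all 50 genes was computed without Rn45s, the ribosomal RNA precursor. In control it was 0.448% ± 0.0486 (SD, n = 2) at 0 h, 0.552% ± 0.0247 at 4 h and 0.531% ± 0.00724 at 8 h. In KO it was 0.388% ± 0.00759, 0.519% ± 0.0302 and 0.447% ± 0.0963. Both libraries at 4 h lay above both at 0 h in each genotype. At 8 h in KO replicate 1 stood at 0.515% (exact 95% binomial interval 0.501% to 0.530%) and replicate 2 at 0.379% (0.363% to 0.395%), so the group spanned the 0 h level. These intervals cover counting error only. The share on Psmd7 alone was 0.0370% ± 0.0021 at 0 h and 0.0139% ± 0.000035 at 8 h in control, and 0.0279% ± 0.0011 and 0.0194% ± 0.0033 in KO.

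**Figure D5:**
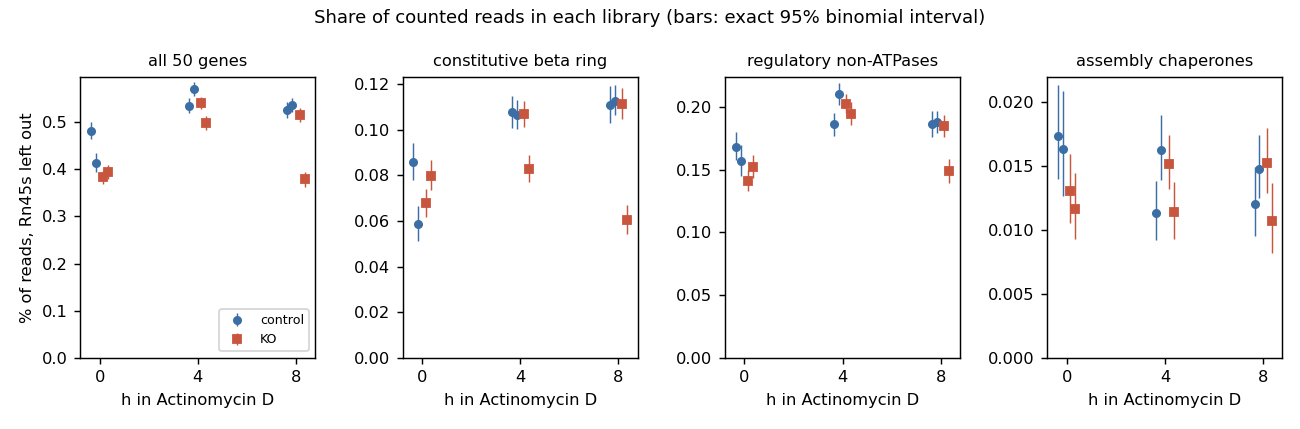
Share of counted reads, Rn45s left out, on all 50 genes and on 3 classes in each library against hours in Actinomycin D; bars are exact 95% binomial intervals, control as blue circles and KO as red squares. The KO library at 8 h with 0.379% in the first panel is replicate 2.

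Between the genotypes 0 of the 34 proteasome genes were called at 0, 4 or 8 h on the deposited scale by limma. Over all genes tested, 4.23% were called higher and 0.0719% lower in KO at 0 h, 0.748% and 0.0% at 4 h, and 4.88% and 0.0144% at 8 h. At an unadjusted p below 0.05, the higher proteasome genes numbered 2 at 0 h, 0 at 4 h, 2 at 8 h, and the lower ones 0 at each time, beside 1183, 619 and 1559 higher and 38, 58 and 23 lower of all 6952 genes. By adjusted p, edgeR with the deposited factors called 0, 0 and 1 higher, beside 155, 67 and 574 of all genes. The median log2 change of the 34 was 0.23 at 0 h, 0.12 at 4 h and 0.40 at 8 h, against 0.44, 0.29 and 0.63 over all genes, and turned to -0.20, -0.18 and -0.25 after TMM scaling, which set the all-gene medians to 0.013, -0.0038 and -0.0047. Of the 34, 12, 12 and 10 lay above the all-gene median at the 3 times on the deposited scale.

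The smallest p at 4 h belonged to Psma4, with a log2 change of 0.55 ± 0.40 (limma, adjusted p = 0.75). At 8 h it belonged to Psmd7, which was 1.22 ± 0.40 higher in KO on the log2 scale (limma, adjusted p = 0.065), and TMM scaling gave 0.56 with an adjusted p of 0.29. Psmd7 at 8 h passed the threshold in 7 of 24 alternatives, among them edgeR with the deposited factors, the fit on the 4 libraries of that time, and the fits that left out either control 0 h library or KO 8 h replicate 1. Psma4 at 8 h was 1.08 ± 0.40 higher (limma, adjusted p = 0.097), and was called when either control 0 h library was left out. At 0 h Psmb2, a structural beta subunit, was called without control 0 h replicate 2, and this gene is named after its value was seen.

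The difference between the changes per hour, KO minus control, was called for 0 of the 34 proteasome genes, and for 0.0% of all genes in either direction. At an unadjusted p below 0.05 it was above 0 for 3 proteasome genes, Psma4, Psma5 and Psmd7, and below 0 for 0, beside 223 and 127 of all genes, and edgeR called 0. The smallest p was that of Psma4, a difference of 0.16 per hour (limma, adjusted p = 0.95). Psma5 had a difference of 0.18 and Psmd7 of 0.15 per hour. So the lower number of calls in KO than in control was not shown to be a difference between the genotypes for any single proteasome gene.

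Genes that work with the proteasome were read from lists set out beside the classes. Of 16 partners and subunits under other names, 11 were tested and 8 fell in control and 7 in KO, beside 52.1% and 37.3% of all genes, with medians of -0.15 per hour in both, near the all-gene -0.17 and -0.14. Adrm1, a ubiquitin receptor of the regulatory particle, stood at 139.6 and 304 at 0 h and 27.0 and 56.0 at 8 h in control, a change of -0.30 per hour (limma, adjusted p = 4.52e-05) that was -0.12 and still called after TMM scaling. Akirin2, which carries proteasomes into the nucleus, fell by 0.28 per hour (limma, adjusted p = 0.0051), and stood at -0.12 with no call after TMM scaling. At 0 h the smallest p of that list was that of Shfm1, a small lid subunit, at 22.4 and 67.8 in control and 124.6 and 104 in KO (limma, adjusted p = 0.056), and next came Ubqln4, a shuttle protein (adjusted p = 0.26).

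Of 9 genes for ubiquitin and the p97 machine that are reported here, 5 were tested and 1 fell in control, beside 52.1% of all genes. It was Faf2, a p97 cofactor, which changed by -0.14 per hour (limma, adjusted p = 0.046). In KO Faf2 changed by -0.14 per hour (limma, adjusted p = 0.056). The medians of the 5 were -0.10 per hour in control and -0.077 in KO. After TMM scaling Faf2 stood at 0.028 in control with no call, and Uba1, the main ubiquitin-activating enzyme, was called higher in KO at 0.15 per hour (limma, adjusted p = 0.044). At 0 h the smallest p of these genes belonged to Uba6 (limma, adjusted p = 0.46).

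Of 7 genes of the NFE2L1 pathway 4 were tested and all 4 fell, beside 52.1% of all genes called lower in control and 37.3% in KO. Their medians were -0.30 per hour in control and -0.34 in KO, below the all-gene medians. All 4 stayed below 0 after TMM scaling, with Nfe2l2 called in each genotype. Nfe2l2, a factor related to NFE2L1, stood at 52.7 and 162 at 0 h, 7.28 and 31.7 at 4 h, and 8.11 and 1.81 at 8 h in control, a change of -0.53 per hour (limma, adjusted p = 1.8e-05). Mafg, a small partner of both factors, changed by -0.26 per hour (adjusted p = 0.0029). The other 2 were Ddi2, the protease that activates NFE2L1, and Mafk. Nfe2l1 itself stayed between 0 and 15.9 units and was not tested. At 0 h the smallest p of the list between genotypes belonged to Mafg and Mafk (limma, adjusted p = 0.55 and 0.71).

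NFE2L1 and NFE2L2 with small MAF partners bind the antioxidant response element, and its core letters TGACNNNGC were searched on both strands of RefSeq promoter windows of build GRCm38.p6, which run from 250 bases before to 50 bases after each start. Of the 50 proteasome genes 42 had a window and 6 of these held the letters, or 14.3%, against 12.4% of all 32851 windows. The 6 were Psmb5, Psmb6, Psmc6, Psmd9, Psmd12 and Psme4, all of them tested. The stretches around the match that lie wholly before the start site are shown because they give the letters behind that count; capitals mark the match, which in Psmc6 and Psmd12 reads as its reverse complement, GCNNNGTCA.
Psmb5, chr14:54618018-54618058, minus strand: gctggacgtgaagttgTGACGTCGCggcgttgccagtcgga
Psmd9, chr5:123228143-123228183, plus strand: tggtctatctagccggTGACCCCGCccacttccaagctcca
Psmc6, chr14:45329581-45329621, plus strand: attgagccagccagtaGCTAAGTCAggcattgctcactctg
Psmd12, chr11:107479278-107479305, plus strand: tctGCTGTGTCAcatttgcccccctcag

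The first base of the match lay 47 bases before the start in Psmb5, 31 in Psmd9, 227 in Psmc6 and 247 in Psmd12. Of the 6 genes with the letters, Psmc6, Psmd12 and Psme4 fell in control on the deposited scale, and Psmb5, Psmb6 and Psmd9 were not called. A match of these letters describes the window only, and no match says only that the letters are not in it. Psmd7, which had the steepest change, is not among the 42.

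The sources used here do not say whether reads were counted by strand. Of the 34 tested genes 8 have exons that overlap an annotated gene on the other strand, namely Psma4, Psma5, Psmb7, Psmc3, Psmc3ip, Psmd3, Psmd13 and Psme1, and for these the reads of the 2 genes cannot be told apart without that setting. Psma5 overlaps the antisense gene 1700010K24Rik, and Psma4 overlaps the coding gene AY074887. The exons of Psmb5 and Psmd1 overlap an annotated gene on the same strand.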

How the data were processed

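Total RNA after ribosomal RNA removal was sequenced from control and Zcchc8 KO ESCs, 2 libraries a group. The deposited table gives a normalised signal: the authors divided the reads counted on each RefSeq transcript by 1 factor per library; per the submitters' processing notes TopHat2 2.1.1, HTSeq 0.6.0, DESeq2 and mm9 were used. No settings are stated there. All values (100%) were whole multiples of 1 read within 0.001 reads. The table had 33896 rows; 978 repeats were dropped and 32918 transcripts summed to 23974 symbols. ERCC rows numbered 0, so changes are on the authors' scale.

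limma 3.58.1 (trend, robust, R 4.3.3) was fitted to log2(value + 1) of the 6952 genes with a mean of at least 10, with two-sided p-values adjusted by Benjamini-Hochberg over these genes and calls below 0.05. Group means gave the genotype comparisons, and a line over 0, 4 and 8 h gave changes per hour. Fold changes of low genes are understated on this scale. edgeR 4.0.16 and DESeq2 1.42.0 on the recovered reads, TMM scaling and other settings were alternatives. The fit was tested on simulated data. Transcript lengths, promoters and exons came from RefSeq and GENCODE tables of GRCm38. The genes with values in every library were those called where at most 6 were called in a direction, otherwise the 3 with the largest change, the 2 highest of each class, and the smallest p of each genotype comparison and of the difference of changes. The members and lists were chosen with earlier results of these data known. Results for 2 genes of the ubiquitin list are not reported here, and that list was counted without them. The other 47 samples were not analysed here.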

Additional observations from a re-analysis of the deposited data

Results flagged for a closer look

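Psma5 was singled out because both KO libraries lay on one side of both control libraries at 0 h and on the other side later. Its log2 change, KO against control, was -0.77 at 0 h, 0.63 at 4 h and 0.71 at 8 h. None of the 3 was called by limma (adjusted p = 0.43, 0.76 and 0.36). The reversal between times was tested only through the difference of the changes per hour, which was 0.18 and was not called. After TMM scaling its 3 changes were -1.19, 0.34 and 0.060 (limma, adjusted p = 0.083, 0.78 and 0.96): the pairs stayed apart at 0 and 4 h, and at 8 h they overlapped, at 52.6 and 49.6 in control and 50.8 and 55.9 in KO. Psma5 rests on 605 reads over 12 libraries.

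Psme3 was singled out for the same reason, with KO above control at 0 h by 0.39, below it at 4 h (log2 change -0.20) and above it at 8 h by 0.66. The difference between these times was not tested for this gene apart from the change per hour, whose difference of 0.033 was not called. With 2 libraries in each group, separation of this kind can arise at single times without any call, and so can a change of side between times. Psma5 and Psme3 were picked from the proteasome genes for this pattern, and its share over all genes is not given here. After TMM scaling all 3 of its changes were at or under -0.0044.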

How the results depend on the processing

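Psmd7 kept its call in control under all 23 alternatives. Against 15 lower calls in control, TMM scaling, edgeR with TMM and DESeq2 gave 1 each, with 5, 3 and 5 higher calls where the deposited scale gave 0. Over all 6952 genes those 3 settings gave 613, 647 and 744 lower and 572, 421 and 498 higher calls. In KO those 3 gave 0 lower calls, against 1, and 1, 1 and 2 higher. All genes there gave 263, 317 and 366 lower and 193, 185 and 270 higher calls. Lower calls in KO were also 2 with a pseudocount of 5, 3 with a mean of at least 50 and 5 with the replicate block. Over all genes they numbered 2888 of 6952, 1215 of 2810 and 2948 of 6952. Between genotypes, edgeR with the deposited factors, a mean of at least 50 and the fit on the 4 libraries of that time each called 1 proteasome gene higher at 8 h. The replicate block called 2 at 8 h, and a pseudocount of 5 called 1 at 0 h, where the deposited-scale count was 0 at both times. Over all genes the higher calls of these settings numbered 574, 322 of 2810, 443 and 754 at 8 h and 430 at 0 h. Leaving out 1 library gave 4 to 26 lower calls in control, 1 to 9 in KO, and 0 to 1 higher between genotypes at 0 h and 0 to 2 at 8 h.

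Under TMM scaling, edgeR with TMM and DESeq2 the control changes per hour turned above 0 for Psmc2 (0.042, 0.038 and 0.034), Psmc3 (0.062, 0.059 and 0.055), Psmc6 (0.029, 0.034 and 0.030), Psmd11 (0.053, 0.050 and 0.046), Psmd12 (0.0098, 0.0088 and 0.0047) and Psmd14 (0.0049, 0.0065 and 0.0025). All 3 set the typical gene level by construction; which scale is nearer to RNA per cell was not tested. The labels do not say whether replicate numbers link libraries across groups. Deviations of same-numbered libraries correlated at -0.070 to 0.12 between groups, which cannot exclude a shared culture. The block is given for completeness. Leaving out each library after TMM scaling was chosen after seeing the data. With 2 libraries a group and 465324 to 1364523 reads, changes in genes such as Psmb10 rest on few reads.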
